A study of Homo sapiens with 12 samples.

Results

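Monocyte and granulocyte maturation genes are a set of 51 genes that maturing phagocytes switch on or keep high: receptors for antibodies, microbes and chemoattractants, inhibitory receptors of the myeloid lineage, secreted and granule proteins, and several abundant intracellular proteins. They were chosen by name from a fixed list, and each was read at the Ensembl identifier that carries its symbol. Of the 51 genes, 50 had an identifier among the 57905 of the count table, and 45 had enough reads to be tested among 13832 tested identifiers. No identifier in the table matched MRC1, and CLEC7A, CLEC12A, TLR8, C5AR1 and FPR1 had too few reads.

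The cells were OCI-AML3, a line established from a human acute myeloid leukaemia, and 12 RNA libraries form 4 groups of 3. SA cells received 500 µM SA for 6 days, and vehicle cells received vehicle for the same 6 days. The labels do not expand SA, an abbreviation used in heme research for succinylacetone, an inhibitor of heme synthesis. The sgALAS1 cells were transduced with a guide RNA against ALAS1, the first enzyme of heme synthesis in most tissues, and sgSCR cells a scrambled guide, and both received doxycycline for 7 days to switch the guide on. Neither SA nor vehicle cells are described as carrying a guide or receiving doxycycline, so the controls of the 2 arms differ in guide, doxycycline and time. Whether the guide cells were a single clone or a pool, and whether replicates were separate cultures, is not stated in the labels, so the p-values cover just the spread from library to library, which may be technical.

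QuantSeq libraries, which count polyadenylated transcripts from their 3′ ends, held 4658513 to 7339843 assigned reads. Levels are counts normalised to library size (CPM), not divided by length, and changes are log2 fold changes with a standard error (SE); a gene is said to rise or fall where its adjusted p, over all 13832 tested identifiers, was under 0.05. ALAS1 itself was at 26.24, 26.35 and 27.26 CPM in sgALAS1 libraries, against 38.64, 41.95 and 37.36 CPM in sgSCR libraries, a log2 change of -0.56 (SE 0.14, adjusted p = 0.00777). It was at 106.1, 101.9 and 111.1 CPM in SA libraries, against 37.52, 36.39 and 31.14 CPM in vehicle libraries, a log2 fold change of 1.60. With SA the transcript of the enzyme gene was therefore higher than in vehicle libraries, and with the guide lower than in sgSCR libraries. Of 9 markers of leukaemic myeloid cells, 8 had reads and KIT had 0, with summed levels of 2030 to 2180 CPM in SA, 2000 to 2363 in vehicle, 2164 to 2269 in sgALAS1 and 1962 to 2154 in sgSCR libraries. NPM1 alone averaged 1033 to 1291 CPM per group, whereas MPO averaged 1.709 to 3.777 CPM and ANPEP 1.225 to 6.205 CPM. Summed markers of T and NK cells were lower in both treated groups: 4 of 7 had reads, mainly CD3D and NKG7, CD2 and CD3E were at 0, and the sum was 5.05 to 8.56 CPM in SA against 21.4 to 24.4 CPM in vehicle libraries. Among guide cells that sum was 0.154 to 1.82 CPM in sgALAS1 against 12.7 to 13.9 CPM in sgSCR libraries. Its part in the results below, among them the adaptor genes TYROBP and HCST that NK cells also use, was not tested. The markers of B cells, erythroid cells, megakaryocytes, dendritic cells, mast cells and stroma summed to at most 8.32 CPM per cell type in any library.

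Myeloid progenitors mature into monocytes, macrophages and granulocytes by replacing the programme of a dividing cell with that of a phagocyte. Antibody-coated targets are bound by Fc receptors that signal through small membrane adaptors with activating tyrosine motifs (ITAMs), microbes are sensed by Toll-like receptors and lectins, and inhibitory receptors with ITIM motifs restrain the same cells. PU.1 and the C/EBP factors are the textbook transcription factors of this programme, and acute myeloid leukaemia is a block in it.

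The starts of 4 genes are shown because their transcripts moved together or apart in the results: FCER1G and CD14 rose in both arms, and TYROBP and LST1 fell in both. Each stretch runs from 250 bases before the RefSeq transcript start to 50 bases after it, 5′ to 3′ on the gene's strand, in build GRCh38.p14. FCER1G lies at chr1:161215045-161215344 on the plus strand, TYROBP at chr19:35908246-35908545 on the minus strand, CD14 at chr5:140633126-140633425 on the minus strand and LST1 at chr6:31586027-31586326 on the plus strand. Capitals mark GAGGAA, a core that PU.1 and related ETS factors bind, on either strand.
FCER1G: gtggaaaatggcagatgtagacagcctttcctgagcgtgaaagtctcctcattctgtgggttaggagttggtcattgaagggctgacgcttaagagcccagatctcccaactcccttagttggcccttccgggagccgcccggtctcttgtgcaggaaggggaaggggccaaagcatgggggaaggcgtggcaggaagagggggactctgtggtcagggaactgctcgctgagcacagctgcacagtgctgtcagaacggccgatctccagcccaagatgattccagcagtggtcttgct
TYROBP: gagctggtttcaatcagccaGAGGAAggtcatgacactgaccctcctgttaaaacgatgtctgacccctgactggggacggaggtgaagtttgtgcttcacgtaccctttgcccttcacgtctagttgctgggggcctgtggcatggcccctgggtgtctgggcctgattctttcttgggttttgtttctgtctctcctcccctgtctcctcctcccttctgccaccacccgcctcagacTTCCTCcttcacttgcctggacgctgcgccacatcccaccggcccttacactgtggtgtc
CD14: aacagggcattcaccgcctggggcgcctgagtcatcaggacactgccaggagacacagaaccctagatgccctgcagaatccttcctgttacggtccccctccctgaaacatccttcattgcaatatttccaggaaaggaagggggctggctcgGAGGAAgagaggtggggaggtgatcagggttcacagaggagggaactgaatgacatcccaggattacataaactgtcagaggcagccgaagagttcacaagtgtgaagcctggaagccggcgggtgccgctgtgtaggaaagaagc
LST1: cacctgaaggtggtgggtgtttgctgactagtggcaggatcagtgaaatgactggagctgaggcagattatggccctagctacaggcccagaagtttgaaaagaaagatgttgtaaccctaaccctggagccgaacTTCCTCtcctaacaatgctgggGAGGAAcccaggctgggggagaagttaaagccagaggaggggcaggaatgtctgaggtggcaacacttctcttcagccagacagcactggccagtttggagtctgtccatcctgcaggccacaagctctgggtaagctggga
No GAGGAA was found in the FCER1G window, 2 in that of TYROBP, 1 in that of CD14 and 2 in that of LST1. RefSeq promoters were matched for 41 of the 51 genes, and 26 of those 41 windows (63.4%) held GAGGAA on either strand, against 27.9% of all 35116 windows in the table. The share was 72.7% of the 11 matched genes that rose in both arms, 66.7% of the 3 that fell in both and 57.1% of the 14 that passed in neither. TTGCNNAA, a pattern like that of C/EBP factors, was found in 8 of 41 (19.5%), against 10.5% of all windows, and in none of the 4 windows printed above. These are matches of letters in a window and not evidence of binding.

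With each treatment, most maturation genes that moved were higher than in the controls. With SA, 18 of 45 rose and 5 fell, whereas 4.83% of all tested identifiers rose and 6.24% fell. With sgALAS1, 19 of 45 rose and 3 fell, against 4.88% and 6.85% of all tested identifiers. The same shares of all tested identifiers are the background for the counts by role given below. The median log2 fold change over the 45 genes was 0.39 with SA and 0.53 with sgALAS1, beside -0.01 and -0.003 over all tested identifiers. In bulk RNA, a change in the share of cells that make a transcript and a change in its amount per cell cannot be told apart. Without regard to the test, the SA libraries lay wholly above the vehicle libraries for 22 genes and wholly below for 6, beside 12.6% and 14.8% of all tested identifiers. The sgALAS1 libraries lay wholly above the sgSCR libraries for 23 and wholly below for 4, beside 13.6% and 15.5%. The list was drawn up with results of these libraries known, so its direction is not independent evidence. Among the calls, TGFBI, THBS1 and FCN1 were kept by the filter only through treated libraries, and CD9 only through control libraries. The filter thus favoured their direction.

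**Figure D1:**
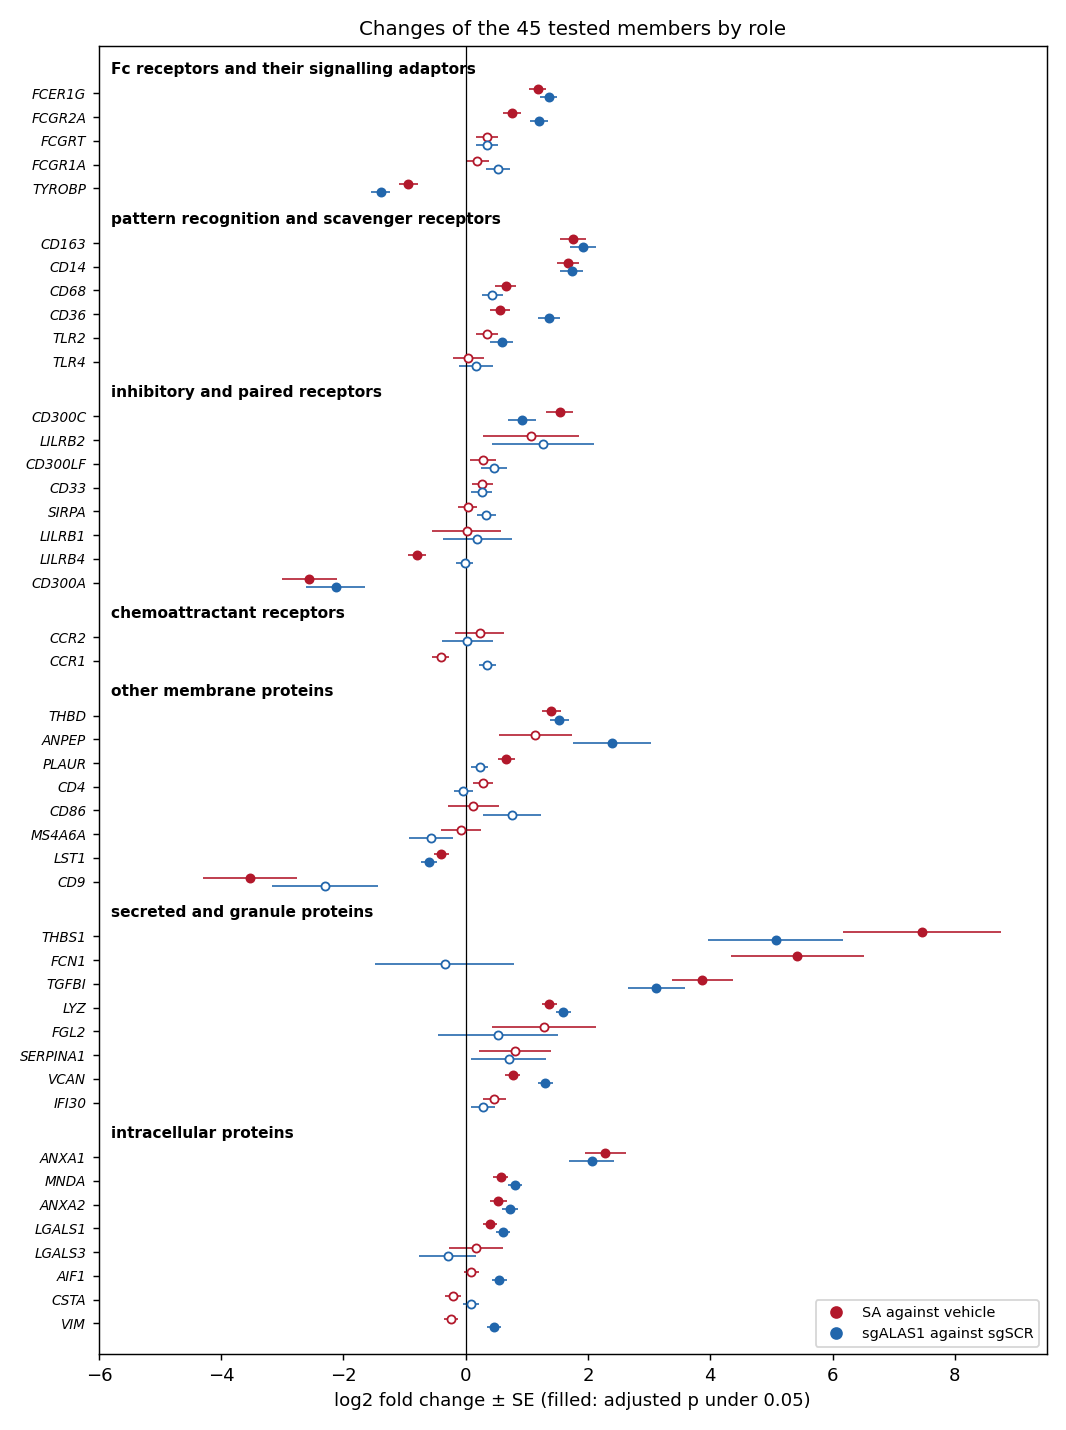
Log2 fold changes with SE (x axis) of the 45 tested genes, grouped by role (y axis), for SA against vehicle (red) and sgALAS1 against sgSCR (blue), n = 3 libraries a group; filled points have an adjusted p under 0.05. Secreted proteins and scavenger receptors lie mainly to the right of 0, while TYROBP, LST1, CD300A and CD9 lie to the left in both arms.

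Among Fc receptors and their adaptors, 2 rose and 1 fell of 5 tested in each arm, and the adaptors went in opposite directions. FCER1G (ENSG00000158869, chromosome 1) encodes the common γ chain, the ITAM adaptor of Fc receptors. Its level was 119.7, 116 and 114 CPM in the SA libraries, against 61.5, 53.5 and 38.8 CPM in the vehicle libraries. It was 134, 126 and 119 CPM in the sgALAS1 libraries, against 48.8, 53.7 and 45.3 CPM in the sgSCR libraries. Treated and control libraries did not overlap in either arm, and the log2 fold changes were 1.18 (SE 0.14, adjusted p = 6.3e-07) with SA and 1.36 (SE 0.14, adjusted p = 2.28e-08) with sgALAS1. TYROBP (ENSG00000011600, chromosome 19) encodes DAP12, an ITAM adaptor that pairs with activating receptors such as those of the TREM and SIGLEC families. Its level was 38.1, 29.8 and 36.5 CPM in the SA libraries, against 76.1, 61.9 and 61.8 CPM in the vehicle libraries, a log2 change of -0.94 (SE 0.15, adjusted p = 7.78e-05). With the guides it was 17.1, 18.5 and 21.5 CPM in the sgALAS1 libraries, against 50.8, 52.9 and 45.8 CPM in the sgSCR libraries, for a log2 ratio of -1.39 (SE 0.16, adjusted p = 2.1e-07). All 6 treated libraries lay below all 6 control libraries, and both calls held without any 1 library. The gene next to TYROBP, HCST, encodes the related adaptor DAP10 and belongs to a list of downstream signalling genes that was not part of the 51. HCST averaged 16.2 ± 2.43 CPM in SA and 32.9 ± 7.09 CPM in vehicle libraries, a log2 change of -1.02 (SE 0.22, adjusted p = 0.00194). It averaged 4.56 ± 1.15 CPM in sgALAS1 and 27.1 ± 6.72 CPM in sgSCR libraries (SD, n = 3 each), a log2 change of -2.55 (SE 0.26, adjusted p = 1.11e-08), and the steeper fall with sgALAS1 passed the test of the difference at -1.53 (SE 0.34, adjusted p = 0.0126).

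FCGR2A, a low-affinity receptor for IgG with an ITAM in its own tail, rose in both arms. FCGR2A stood at 88.4, 75.4 and 83.2 CPM in the SA libraries, against 47.9, 50.3 and 48.7 CPM in the vehicle libraries, which is a log2 difference of 0.75 (SE 0.15, adjusted p = 0.000797). It was 81.5, 95.6 and 88.7 CPM in the sgALAS1 libraries, against 29.9, 48.9 and 36.4 CPM in the sgSCR libraries, a log2 change of 1.20 (SE 0.15, adjusted p = 7.89e-07). FCGR1A, the high-affinity receptor for IgG, did not pass the test: its level was 26.03, 47.5 and 37.6 CPM in SA and 30.4, 29.4 and 37.9 CPM in vehicle libraries, which overlap. With the guides FCGR1A was 36.4, 43.8 and 37.7 CPM in the sgALAS1 libraries, against 22.7, 31.5 and 27.3 CPM in the sgSCR libraries, with no overlap and a log2 change of 0.53 (SE 0.19, adjusted p = 0.068); it passed with only the 6 libraries of that arm in the fit (adjusted p = 0.0423). FCGRT, the neonatal Fc receptor that recycles IgG, was at 0.35 with SA and 0.35 with sgALAS1, and neither passed (adjusted p = 0.223 and 0.227). Reads of FCGR1A and FCGR2A may be shared with near-identical copies, of which FCGR1BP had 492, FCGR2B 482 and FCGR2C 424 reads over the 12 libraries, against 2335 for FCGR1A and 4394 for FCGR2A.

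**Figure D2:**
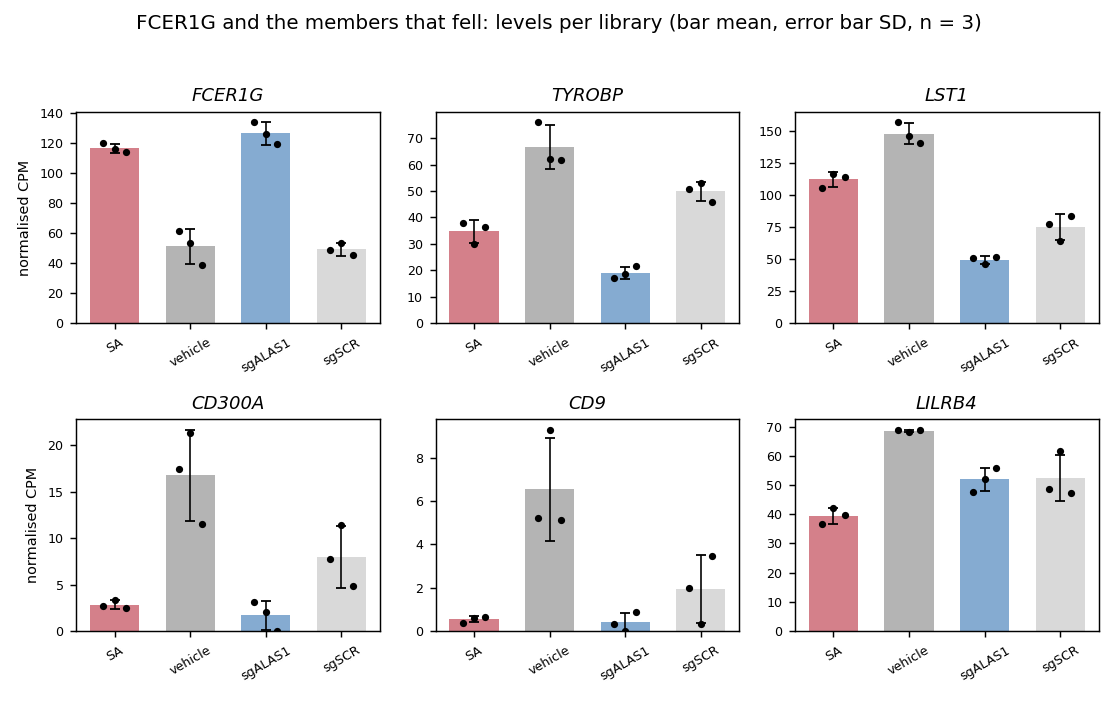
Normalised CPM (y axis, from 0) of FCER1G, TYROBP, LST1, CD300A, CD9 and LILRB4 in SA, vehicle, sgALAS1 and sgSCR libraries (x axis); points are libraries, bars means and error bars SD, n = 3. TYROBP averaged 19.1 ± 2.23 CPM in sgALAS1 and 49.8 ± 3.64 CPM in sgSCR libraries, while FCER1G averaged 126 ± 7.49 CPM in sgALAS1 and 49.3 ± 4.21 CPM in sgSCR libraries.

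Pattern recognition and scavenger receptors rose or did not pass, and 0 fell by edgeR, also at an unadjusted p under 0.05 and by DESeq2. Of 6 tested of 9, 4 rose in each arm, with medians of 0.61 for SA and 0.97 for sgALAS1. CD14 (ENSG00000170458, chromosome 5), the co-receptor that hands bacterial lipopolysaccharide to TLR4, was at 68.6, 71.2 and 70.7 CPM in the SA libraries, against 16.6, 29.6 and 20.4 CPM in the vehicle libraries. It was at 54.95, 62.1 and 47.6 CPM in the sgALAS1 libraries, against 16.9, 19.1 and 13.6 CPM in the sgSCR libraries. In each arm every treated library exceeded every control, with log2 fold changes of 1.67 (SE 0.18, adjusted p = 1.38e-07) for SA and 1.73 (SE 0.19, adjusted p = 4.91e-08) for sgALAS1. CD163 (ENSG00000177575, chromosome 12), the macrophage receptor that takes up haemoglobin bound to haptoglobin, was at 39.8, 43.6 and 42.8 CPM in the SA libraries, against 15.3, 9.65 and 12.2 CPM in the vehicle libraries. It was at 42.1, 53.8 and 41.2 CPM in the sgALAS1 libraries, against 13.6, 7.39 and 15.4 CPM in the sgSCR libraries. Its log2 fold changes were 1.75 (SE 0.21, adjusted p = 1e-06) and 1.92 (SE 0.22, adjusted p = 1.11e-07), with no overlap of groups in either arm. The SA and sgALAS1 libraries overlapped each other in CD163, as did the vehicle and sgSCR libraries.

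CD36, a scavenger receptor for oxidised lipids and fatty acids, rose in both arms, and its level in the controls differed between the arms. It was at 45.5, 50.9 and 51.7 CPM in the SA libraries, against 32.4, 36.4 and 31.9 CPM in the vehicle libraries, for a log2 ratio of 0.56 (SE 0.17, adjusted p = 0.0268). This call did not survive leaving out vehicle replicate 1 or 3 or SA replicate 2 or 3, with adjusted p up to 0.0952. Among guide cells CD36 was at 41.2, 42.9 and 32.6 CPM in the sgALAS1 libraries, against 13.3, 13.02 and 19.2 CPM in the sgSCR libraries, which is a log2 difference of 1.36 (SE 0.18, adjusted p = 1.91e-06). CD68, a lysosomal glycoprotein of macrophages, averaged 42.01 ± 7.24 CPM in SA and 26.7 ± 3.08 CPM in vehicle libraries (SD, n = 3), a log2 change of 0.65 (SE 0.17, adjusted p = 0.0109), a call lost when vehicle replicate 2 or SA replicate 3 was left out (adjusted p reaching 0.104). With sgALAS1 the log2 fold change of CD68 was 0.44 (SE 0.17, adjusted p = 0.106), and an identifier with no gene name that overlaps CD68 on the same strand held 36653 reads against its 2135. TLR2, which senses bacterial lipoproteins, passed with sgALAS1 at 0.59 (SE 0.19, adjusted p = 0.0358) and not with SA at 0.35 (SE 0.18, adjusted p = 0.248). Its call was lost without sgSCR replicate 1, sgSCR replicate 3, sgALAS1 replicate 1 or sgALAS1 replicate 2, with adjusted p up to 0.233. TLR4, the lipopolysaccharide receptor that CD14 serves, was at 12.8, 11.3 and 14.4 CPM in SA and 13.8, 11.2 and 12.6 CPM in vehicle libraries, and at 7.1, 10.7 and 6.43 CPM in sgALAS1 and 8.37, 6.91 and 6.45 CPM in sgSCR libraries. The groups overlapped, and the 95% interval of the log2 fold change ran from -0.46 to 0.54 with SA and from -0.38 to 0.71 with sgALAS1, so a change of either sign was within reach of the error. TLR8, which senses single-stranded RNA, had 12, 1 and 5 reads in SA and 0, 0 and 5 in vehicle libraries, which overlap. It had 10, 8 and 12 reads in sgALAS1 and 0 in each sgSCR library, at least 10.5-fold higher against a floor of 3 reads over the group. CLEC7A, the β-glucan receptor Dectin-1, had 3, 4 and 4 reads in SA, 0, 4 and 3 in vehicle, 4, 9 and 5 in sgALAS1 and 0, 4 and 4 in sgSCR libraries, too few for a test.

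**Figure D3:**
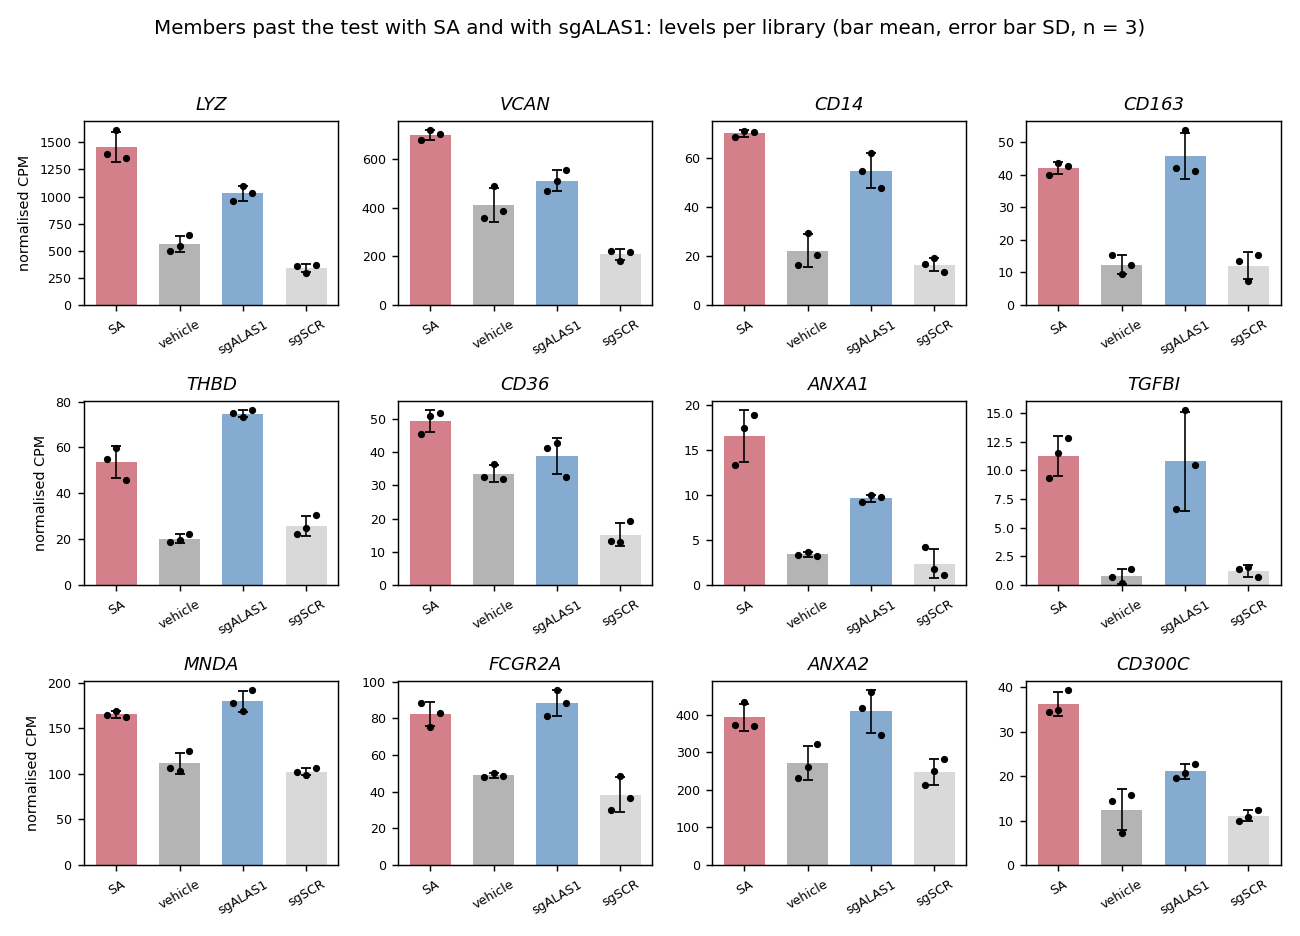
Normalised CPM (y axis, from 0) of 12 genes that rose in both arms, in SA, vehicle, sgALAS1 and sgSCR libraries (x axis); points are libraries, bars means and error bars SD, n = 3. In each panel the 3 SA libraries lie above the 3 vehicle libraries and the 3 sgALAS1 libraries above the 3 sgSCR libraries, as for CD14 with means of 70.2 CPM in SA against 22.2 CPM in vehicle and 54.9 CPM in sgALAS1 against 16.5 CPM in sgSCR libraries.

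Inhibitory and paired receptors moved in both directions: of 8 tested of 9, 1 rose and 2 fell with SA, and 1 rose and 1 fell with sgALAS1. The calls included a pair of related receptors from 1 gene cluster on chromosome 17, CD300A and CD300C, that went in opposite directions. CD300A (ENSG00000167851), an inhibitory receptor with ITIMs that binds phosphatidylserine, was at 2.72, 3.38 and 2.43 CPM in the SA libraries, against 17.4, 21.3 and 11.5 CPM in the vehicle libraries. It was at 3.09, 1.999 and 0 CPM in the sgALAS1 libraries, against 7.77, 11.4 and 4.79 CPM in the sgSCR libraries, and the treated libraries lay below the controls in both arms. Its log2 fold changes were -2.56 (SE 0.45, adjusted p = 0.0002) with SA and -2.13 (SE 0.49, adjusted p = 0.00302) with sgALAS1; without single libraries the second ranged from -2.87 to -1.62 and stayed past the threshold. CD300C (ENSG00000167850), an activating relative that pairs with ITAM adaptors, was at 34.4, 34.8 and 39.4 CPM in the SA libraries, against 14.5, 7.11 and 15.8 CPM in the vehicle libraries, for a log2 ratio of 1.54 (SE 0.22, adjusted p = 1.34e-05). It was at 19.6, 20.7 and 22.8 CPM in the sgALAS1 libraries, against 9.96, 10.8 and 12.4 CPM in the sgSCR libraries, which is a log2 difference of 0.92 (SE 0.23, adjusted p = 0.00678). The third of the family, CD300LF, was at 0.28 and 0.46 without passing (adjusted p = 0.454 and 0.179), and the gene RAB37, which overlaps it on the other strand, held 3087 reads against its 1524.

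LILRB4, an inhibitory receptor of monocytic leukaemia cells, fell with SA and did not pass with sgALAS1, and the difference between the arms passed. It was at 36.5, 41.98 and 39.7 CPM in the SA libraries, against 68.97, 68.2 and 68.7 CPM in the vehicle libraries, a log2 change of -0.80 (SE 0.14, adjusted p = 0.000231). With the guides the groups overlapped, at 47.7, 52.1 and 55.9 CPM in sgALAS1 and 48.6, 61.6 and 47.1 CPM in sgSCR libraries, with a log2 change of -0.02 (SE 0.14, adjusted p = 0.959). The difference, sgALAS1 effect minus SA effect, was 0.78 (SE 0.20, adjusted p = 0.044), and its call was lost (adjusted p 0.0671 to 0.152) when vehicle replicate 2 or 3, SA replicate 1 or 3, sgSCR replicate 1 or 3, or any sgALAS1 replicate was left out. CD33, the SIGLEC used as a myeloid leukaemia marker, was at 30.1, 39.2 and 35.2 CPM in SA and 28.7, 25.4 and 32.4 CPM in vehicle libraries, and at 37.7, 39.6 and 39.2 CPM in sgALAS1 and 26.3, 32.5 and 38.4 CPM in sgSCR libraries. Its 95% interval of the log2 fold change ran from -0.06 to 0.61 with SA and from -0.07 to 0.59 with sgALAS1, and neither passed. SIRPA, the receptor for the CD47 signal that blocks phagocytosis, was at 0.03 (SE 0.16, adjusted p = 0.933) and 0.34 (SE 0.16, adjusted p = 0.184). LILRB1 and LILRB2, which bind HLA class I, lay between 0 and 4.7 CPM over all libraries and did not pass, with log2 fold changes of 0.01 and 1.06 for SA and 0.19 and 1.26 for sgALAS1. CLEC12A, an ITIM lectin, had 9 reads over the SA libraries and 0 over the vehicle libraries, and 10 over the sgALAS1 libraries and 1 over the sgSCR libraries.

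Neither of the 2 tested chemoattractant receptors passed in either arm by edgeR. At an unadjusted p under 0.05, 1 was lower with SA and 1 higher with sgALAS1, which is CCR1 both times, and DESeq2 called it lower with SA. CCR1, a receptor for inflammatory chemokines, was at 94.6, 75.6 and 82.4 CPM in the SA libraries, against 110.1, 118 and 108 CPM in the vehicle libraries, without overlap and with a log2 change of -0.41 (SE 0.14, adjusted p = 0.0502) just short of the threshold. It passed with DESeq2 (adjusted p = 0.0499), with no filter on low counts (adjusted p = 0.0431) and with a filter of 1 CPM in 6 libraries (adjusted p = 0.0499). With the guides it was at 84.1, 94.5 and 113 CPM in the sgALAS1 libraries, against 63.5, 89.04 and 74.7 CPM in the sgSCR libraries, with a log2 change of 0.35 (SE 0.14, adjusted p = 0.0976). The difference between the arms, 0.77 (SE 0.20, adjusted p = 0.0429), passed, and was lost without vehicle replicate 2 or 3, SA replicate 2 or 3, sgSCR replicate 1 or 3, or sgALAS1 replicate 2 or 3 (adjusted p up to 0.185). CCR2, the monocyte receptor for CCL2, was at 0.23 and 0.03 (adjusted p = 0.79 and 0.98). C5AR1, the receptor for complement C5a, had 13, 8 and 5 reads in SA, 4, 3 and 6 in vehicle, 5, 5 and 5 in sgALAS1 and 0, 2 and 3 in sgSCR libraries. FPR1, the receptor for bacterial formyl peptides, had 7 reads over the SA libraries, 0 over the vehicle libraries and 1 over each of the sgALAS1 and sgSCR groups.

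Among 8 other membrane proteins, 2 rose and 2 fell with SA, and 2 rose and 1 fell with sgALAS1. THBD (ENSG00000178726, chromosome 20), thrombomodulin, which redirects thrombin to anticoagulant protein C, was at 54.8, 59.7 and 45.9 CPM in the SA libraries, against 18.8, 19.6 and 22.3 CPM in the vehicle libraries, for a log2 ratio of 1.40 (SE 0.16, adjusted p = 3.27e-07). It was at 75.02, 73.05 and 76.2 CPM in the sgALAS1 libraries, against 22.1, 24.9 and 30.6 CPM in the sgSCR libraries, which is a log2 difference of 1.53 (SE 0.16, adjusted p = 1.7e-08), with no overlap in either arm. PLAUR, the urokinase receptor, passed with SA at 0.66 (SE 0.14, adjusted p = 0.00192) and not with sgALAS1 at 0.23 (SE 0.14, adjusted p = 0.341), although the sgALAS1 libraries, at 144, 155 and 143 CPM, lay above the sgSCR libraries, at 138, 141 and 98.9 CPM. The difference between these effects did not pass (adjusted p = 0.376). ANPEP, the aminopeptidase CD13, was at 5.71, 3.82 and 9.09 CPM in sgALAS1 and 3.19, 0.321 and 0.165 CPM in sgSCR libraries, a log2 change of 2.40 (SE 0.64, adjusted p = 0.0118). That call was lost without sgSCR replicate 2, sgSCR replicate 3 or sgALAS1 replicate 3 (adjusted p up to 0.0773), and the value ranged from 1.86 to 4.54 without single libraries. With SA, ANPEP was at 1.14 (SE 0.59, adjusted p = 0.238).

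LST1, a small transmembrane protein of leukocytes encoded within the major histocompatibility region of chromosome 6, fell in both arms. It was at 106, 116 and 114 CPM in the SA libraries, against 157, 146 and 140.3 CPM in the vehicle libraries, for a log2 ratio of -0.40 (SE 0.12, adjusted p = 0.0302), a call lost when vehicle replicate 1 or 2, or SA replicate 1 or 3, was left out (adjusted p reaching 0.139). It was at 50.9, 45.97 and 51.6 CPM in the sgALAS1 libraries, against 77.3, 64.1 and 83.5 CPM in the sgSCR libraries, which is a log2 difference of -0.60 (SE 0.13, adjusted p = 0.00166), a call that held without any 1 library. From low to high the groups were sgALAS1, sgSCR, SA and vehicle, with no overlap between neighbours. CD9, a tetraspanin, was at 0.389, 0.597 and 0.648 CPM in the SA libraries, against 5.24, 9.31 and 5.13 CPM in the vehicle libraries, a log2 change of -3.53 (SE 0.77, adjusted p = 0.00227). Among guide cells the level was 0.309, 0 and 0.887 CPM in sgALAS1 and 1.99, 0.321 and 3.47 CPM in sgSCR libraries, which overlap, with a log2 change of -2.30 (SE 0.86, adjusted p = 0.0808) that passed with DESeq2 (adjusted p = 0.0487). CD4, which monocytes carry at low level, CD86, a co-stimulator of T cells, and MS4A6A did not pass in either arm. Their log2 fold changes were 0.28, 0.12 and -0.08 with SA and -0.04, 0.76 and -0.57 with sgALAS1.

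Of 8 secreted and granule proteins, 5 rose with SA and 4 with sgALAS1, and 0 fell in either arm by edgeR, at an unadjusted p under 0.05 or by DESeq2. The SA libraries lay above the vehicle libraries for all 8, with a median log2 fold change of 1.32, beside 12.6% of all tested identifiers. The sgALAS1 libraries lay above the sgSCR libraries for 4 of 8, beside 13.6%. Among the 8, TGFBI, THBS1, FCN1 and FGL2 were kept by the filter on low counts only through treated libraries. The filter thus favoured their direction in these counts and in the median. LYZ (ENSG00000090382, chromosome 12), lysozyme, which cleaves bacterial cell walls, was at 1392, 1615 and 1358 CPM in the SA libraries, against 501, 544 and 646 CPM in the vehicle libraries. It was at 955, 1099 and 1035 CPM in the sgALAS1 libraries, against 356, 296 and 370.2 CPM in the sgSCR libraries. Every treated library lay above every control library of its arm, and the sgALAS1 libraries lay below the SA libraries. The log2 fold changes were 1.37 (SE 0.12, adjusted p = 1.36e-09) with SA and 1.60 (SE 0.12, adjusted p = 1.9e-11) with sgALAS1. An identifier on the opposite strand within LYZ had 98.7 to 99.6% as many reads as LYZ in each library, so reads of the pair cannot be told apart. VCAN (ENSG00000038427, chromosome 5), the proteoglycan versican that classical monocytes make, was at 679, 719.6 and 704 CPM in the SA libraries, against 359, 489 and 388 CPM in the vehicle libraries, for a log2 ratio of 0.77 (SE 0.12, adjusted p = 3.84e-05). It was at 469, 513 and 556 CPM in the sgALAS1 libraries, against 224, 182 and 219 CPM in the sgSCR libraries, which is a log2 difference of 1.30 (SE 0.12, adjusted p = 2.68e-09), and its antisense gene VCAN-AS1 held 6013 reads against its 31093.

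TGFBI, THBS1 and FCN1 had few or no reads in the control libraries, and the filter on low counts kept them through treated libraries. Their adjusted p is therefore not independent support for a rise. TGFBI, a matrix protein that binds integrins, was at 9.33, 11.5 and 12.8 CPM in the SA libraries, against 0.69, 0.169 and 1.42 CPM in the vehicle libraries, a log2 change of 3.87 (SE 0.50, adjusted p = 2.36e-06). It was at 6.64, 15.3 and 10.4 CPM in the sgALAS1 libraries, against 1.39, 1.61 and 0.661 CPM in the sgSCR libraries, for a log2 ratio of 3.12 (SE 0.47, adjusted p = 1.74e-05). THBS1, thrombospondin, a ligand of CD36, had 20, 15 and 28 reads in the SA libraries and 0 in each vehicle library, at least 24.2-fold higher against a floor of 3 reads over the vehicle group. It had 23, 4 and 17 reads in sgALAS1 and 1, 0 and 0 in sgSCR libraries, a ratio of 46.1 with a 95% counting interval of 7.86 to 1860. THBS1 passed in both arms, with adjusted p = 0.000213 for SA and 0.00217 for sgALAS1. FCN1, ficolin-1, a lectin that activates complement and marks classical monocytes, had 24, 30 and 34 reads in SA and 2, 0 and 0 in vehicle libraries, a ratio of 50.6 with a counting interval of 13.6 to 425 (adjusted p = 0.000966). It did not follow in the guide arm, where 0, 6 and 0 reads in sgALAS1 and 4, 4 and 0 in sgSCR libraries overlapped (adjusted p = 0.9). The difference between the arms did not pass at adjusted p = 0.0868, and passed with no filter on low counts (adjusted p = 0.0171) and without vehicle replicate 1, sgSCR replicate 3 or sgALAS1 replicate 2 (adjusted p = 0.0388, 0.0465 and 0.0143). Counting intervals cover counting error only.

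The other secreted and granule genes did not pass in either arm. IFI30, the lysosomal thiol reductase of antigen processing, was at 29.7, 41.4 and 29.7 CPM in SA and 25.2, 21.7 and 25.7 CPM in vehicle libraries, which do not overlap, with a log2 change of 0.47 (SE 0.19, adjusted p = 0.115). With sgALAS1 the change was 0.28, and a gene that overlaps it on the same strand held 3621 reads against its 2099. SERPINA1, the elastase inhibitor α1-antitrypsin, was at 0.81 and 0.70, and FGL2, a prothrombinase, at 1.28 and 0.53, both at no more than 5.1 CPM in any library. With the guides FGL2 had reads in sgALAS1 replicate 1 but none in replicates 2 and 3. The gene CCDC146, which overlaps FGL2 on the opposite strand, held 92 reads over the 12 libraries against its 94.

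Of 8 intracellular proteins, 4 rose with SA and 6 with sgALAS1, and 0 fell by edgeR or DESeq2 in either arm (1 with SA and 0 with sgALAS1 at an unadjusted p under 0.05). ANXA1 (ENSG00000135046, chromosome 9), annexin A1, a mediator of the resolution of inflammation, was at 13.4, 17.5 and 18.97 CPM in the SA libraries, against 3.31, 3.72 and 3.19 CPM in the vehicle libraries, which is a log2 difference of 2.28 (SE 0.34, adjusted p = 2.16e-05). It was at 9.26, 9.99 and 9.75 CPM in the sgALAS1 libraries, against 4.18, 1.77 and 1.16 CPM in the sgSCR libraries, a log2 change of 2.06 (SE 0.37, adjusted p = 0.000201). ANXA2, annexin A2, which organises plasminogen at the cell surface, changed by 0.54 (SE 0.13, adjusted p = 0.00682) with SA and 0.72 (SE 0.13, adjusted p = 0.000271) with sgALAS1, and its 3 listed pseudogenes had 0 reads. MNDA, an interferon-inducible nuclear antigen of myeloid cells, was at 164, 169.5 and 162 CPM in the SA libraries, against 106, 104 and 125 CPM in the vehicle libraries, for a log2 ratio of 0.57 (SE 0.12, adjusted p = 0.00102). It was at 178, 169.5 and 192 CPM in the sgALAS1 libraries, against 102, 99.3 and 106 CPM in the sgSCR libraries, which is a log2 difference of 0.81 (SE 0.12, adjusted p = 6.87e-06). LGALS1, galectin-1, rose by 0.39 (SE 0.11, adjusted p = 0.0239) with SA and 0.61 (SE 0.12, adjusted p = 0.000389) with sgALAS1, and the SA call was lost when vehicle replicate 2 or 3 or any SA replicate was left out (adjusted p reaching 0.161). LGALS3, galectin-3, was at 0.17 and -0.29, and CSTA, the protease inhibitor stefin A, at -0.21 and 0.09, with adjusted p between 0.322 and 0.87.

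AIF1 and VIM passed with sgALAS1 and not with SA. AIF1, the actin-binding protein IBA1, was at 109.9, 135 and 114 CPM in the sgALAS1 libraries, against 79.9, 88.6 and 76.4 CPM in the sgSCR libraries, a log2 change of 0.55 (SE 0.12, adjusted p = 0.00215), and at 0.09 with SA (adjusted p = 0.704). VIM, vimentin, was at 749, 796 and 712 CPM in the sgALAS1 libraries, against 471, 624 and 549 CPM in the sgSCR libraries, for a log2 ratio of 0.46 (SE 0.11, adjusted p = 0.0065), a call lost without sgSCR replicate 1 (adjusted p = 0.0732). With SA it was at 613, 722 and 652 CPM, against 710.2, 853 and 789 CPM with vehicle, a log2 change of -0.24 (SE 0.11, adjusted p = 0.178). The difference between the arms passed for VIM at 0.70 (SE 0.16, adjusted p = 0.0174) and not for AIF1 at 0.46 (SE 0.17, adjusted p = 0.236). The VIM difference was lost without vehicle replicate 2, SA replicate 1, SA replicate 3, sgSCR replicate 1, sgALAS1 replicate 1 or sgALAS1 replicate 2 (adjusted p up to 0.0957).

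The starting levels of the 2 arms were not the same. Against vehicle, 7 of the 45 genes were lower in sgSCR and 0 were higher, beside 0.962% and 0.47% of all tested identifiers. DESeq2 likewise called 0 higher and 7 lower, and at an unadjusted p under 0.05 edgeR had 3 higher. The 7 were LYZ, VCAN, CD36, LST1, AIF1, VIM and CCR1, with log2 fold changes of -0.73, -0.98, -1.14, -0.98, -0.60, -0.52 and -0.56. The sgSCR libraries lay wholly below the vehicle libraries for 16 of the 45 and wholly above for 0, beside 8.73% and 8.42% of all tested identifiers. The calls of VIM and CCR1 were lost without vehicle replicate 2 or sgSCR replicate 1, and that of CCR1 also without sgSCR replicate 3 (adjusted p up to 0.231). AIF1, whose rise passed with sgALAS1 and not with SA, was at 119.5 ± 13.3 CPM in sgALAS1, 81.6 ± 6.27 CPM in sgSCR and 123 ± 6.4 CPM in vehicle libraries. CD36 was at 38.9 ± 5.53 CPM in sgALAS1, 15.2 ± 3.47 CPM in sgSCR and 33.5 ± 2.47 CPM in vehicle libraries (SD, n = 3 each). For AIF1, VIM, CD36, VCAN and CCR1 the sgALAS1 libraries overlap the vehicle libraries. For LYZ they lie above the vehicle libraries, and for LST1 below. The comparisons with sgALAS1 and with vehicle both use the sgSCR libraries, and sgALAS1 was not tested against vehicle.

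**Figure D4:**
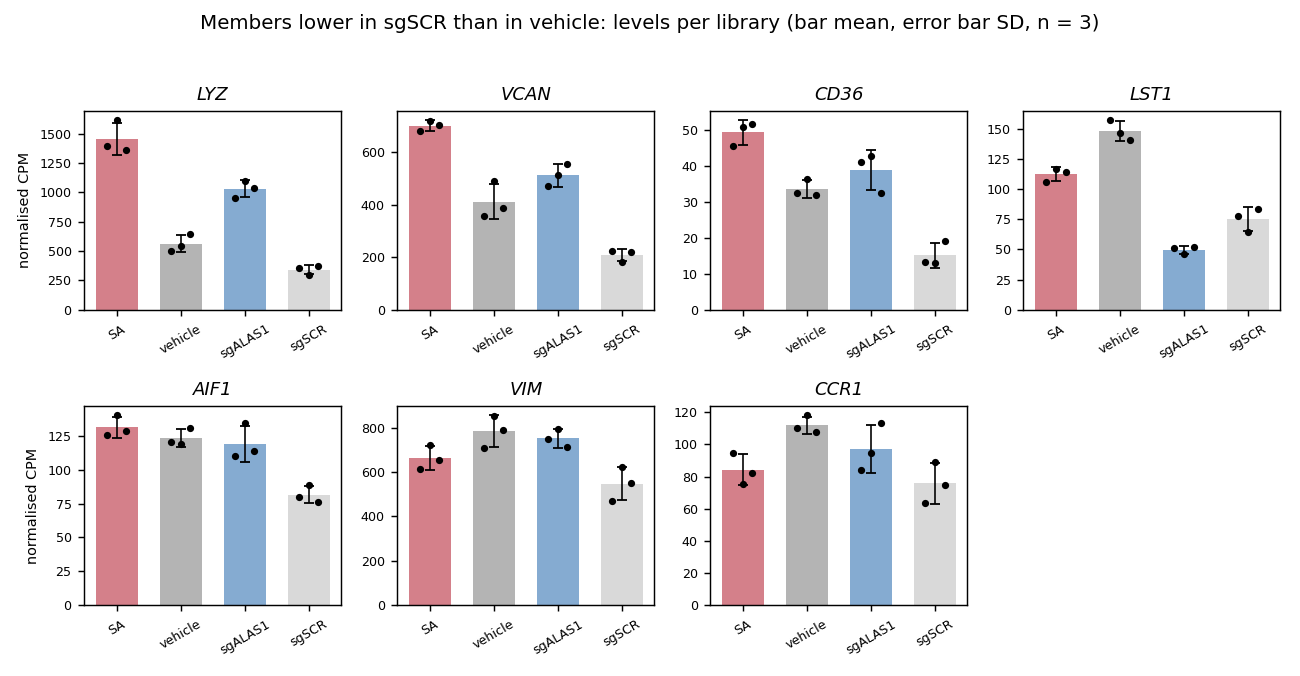
Normalised CPM (y axis, from 0) of the 7 genes that were lower in sgSCR than in vehicle, in SA, vehicle, sgALAS1 and sgSCR libraries (x axis); points are libraries, bars means and error bars SD, n = 3. VIM averaged 752 ± 42.2 CPM in sgALAS1, 548 ± 76.3 in sgSCR and 784 ± 71.6 in vehicle libraries.

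The 2 arms share no library, and their calls overlapped. The 15 genes that rose in both were ANXA1, ANXA2, CD14, CD163, CD300C, CD36, FCER1G, FCGR2A, LGALS1, LYZ, MNDA, TGFBI, THBD, THBS1 and VCAN, which is 83.3% of the rises with SA and 78.9% of those with sgALAS1. TGFBI and THBS1 count among these rises with the limit of the filter given above. TYROBP, LST1 and CD300A fell in both, and 0 rose in 1 arm and fell in the other. Over all tested identifiers, 1.78% rose in both arms, 2.97% fell in both and 0.0289% went in opposite directions. Across the 45 genes the effects had a Pearson correlation of 0.787 and a Spearman correlation of 0.765, as a description over genes that share libraries. Across all 13832 tested identifiers the Pearson correlation was 0.541. In the test of the difference, 3 of 45 passed, LILRB4, CCR1 and VIM, all higher in the sgALAS1 effect, beside 0.427% of all tested identifiers in that direction. In the other direction 0 passed by edgeR or DESeq2, with 3 at an unadjusted p under 0.05, beside 0.759% of all tested identifiers. The 18 genes that passed in neither arm were CCR1, CCR2, CD300LF, CD33, CD4, CD86, CSTA, FCGR1A, FCGRT, FGL2, IFI30, LGALS3, LILRB1, LILRB2, MS4A6A, SERPINA1, SIRPA and TLR4.

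**Figure D5:**
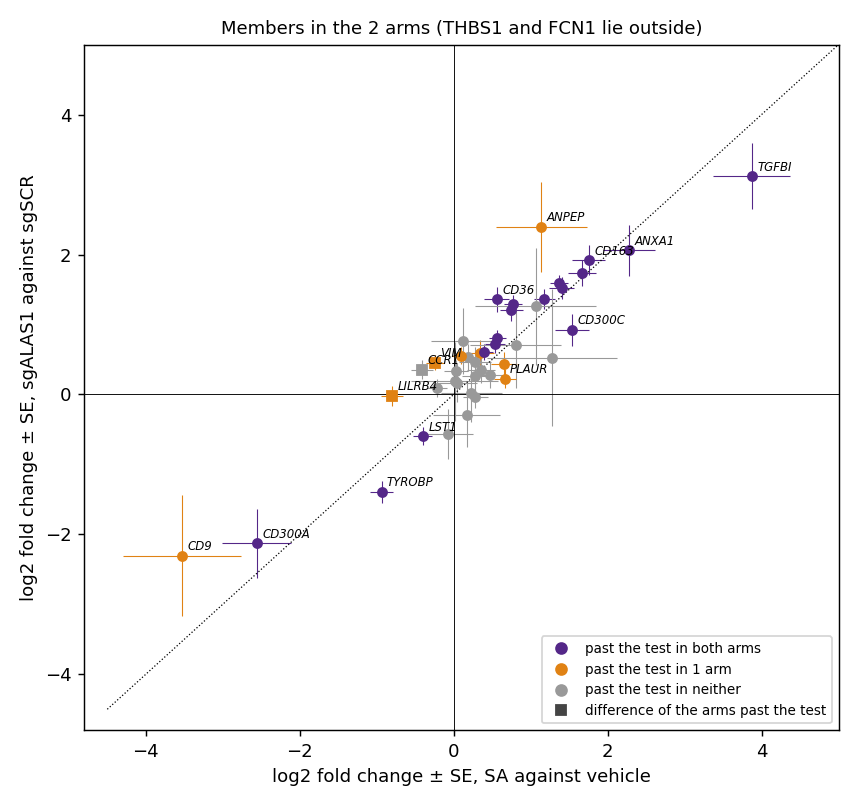
Log2 fold change with SE of sgALAS1 against sgSCR (y axis) plotted over that of SA against vehicle (x axis) for 43 of the 45 tested genes, n = 3 libraries a group; colour shows in how many arms a gene passed and squares mark the 3 genes whose difference passed. Genes that passed in both arms lie in the upper right or the lower left, on both sides of the dotted line of equal change, from CD300A at -2.56 and -2.13 to TGFBI at 3.87 and 3.12.

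Other genes of phagocyte maturation stand in a separate list. Of 23 tested of 30, 9 rose and 1 fell with SA, and 8 rose and 2 fell with sgALAS1, with medians of 0.43 and 0.41. The rises are 39.1% with SA and 34.8% with sgALAS1, beside 4.83% and 4.88% of all tested identifiers. The falls, 4.35% and 8.7%, are near the 6.24% and 6.85% of all tested identifiers. LILRA5 and MMP9 rose in both arms and were kept by the filter only through treated libraries. SLC11A1, which fell with sgALAS1, was kept only through control libraries. The filter thus favoured their direction. This list and those of the next paragraph were drawn up with results of these libraries known, so their shares are not independent evidence. S100A9, a subunit of the antimicrobial protein calprotectin, rose in both arms and rose less with sgALAS1, since the sgALAS1 effect minus the SA effect was -1.33 (SE 0.30, adjusted p = 0.0127), with 86.9 ± 8.58 CPM in SA and 5.98 ± 0.76 CPM in vehicle libraries and 35.5 ± 1.5 CPM in sgALAS1 and 6.26 ± 2.14 CPM in sgSCR libraries. CYBB, the heme-binding subunit of the phagocyte oxidase, rose by 0.77 (SE 0.13, adjusted p = 0.000122) with SA and 0.99 (SE 0.13, adjusted p = 3.12e-06) with sgALAS1. It was lower in sgSCR than in vehicle at -0.89 (SE 0.13, adjusted p = 0.000205). CD93, a lectin-like receptor of myeloid and endothelial cells, fell with SA at a log2 change of -1.80 (SE 0.29, adjusted p = 9.51e-05) and had 0 CPM in each sgALAS1 library, against 23.4 ± 3.39 CPM in sgSCR libraries.

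Among signalling genes downstream of these receptors, of 20 tested of 22, 1 rose and 3 fell with SA and 1 rose and 2 fell with sgALAS1, with medians of -0.10 and -0.04. The rises are 5% of those tested in each arm, near the 4.83% and 4.88% of all tested identifiers. The falls are 15% with SA and 10% with sgALAS1, beside 6.24% and 6.85%. The falls included HCST in both arms and PLCG2, a phospholipase behind ITAM receptors, at -0.94 (SE 0.27, adjusted p = 0.0222) with SA and -0.82 (SE 0.26, adjusted p = 0.0403) with sgALAS1. TICAM1, the adaptor TRIF of TLR3 and TLR4, rose by 0.90 (SE 0.20, adjusted p = 0.00243) and 0.67 (SE 0.20, adjusted p = 0.0236). Among transcription factors of maturation, 4 rose and 1 fell of 17 tested of 19 with SA, and 6 rose and 1 fell with sgALAS1. The rises are 23.5% with SA and 35.3% with sgALAS1, beside 4.83% and 4.88% of all tested identifiers. The falls are 5.88% in each arm, near the 6.24% and 6.85% of all tested identifiers. SPI1, the gene of PU.1, rose with SA by 0.95 (SE 0.16, adjusted p = 0.000133) and was at 0.35 (SE 0.16, adjusted p = 0.174) with sgALAS1. MYB, a factor of immature cells, was at -0.46 (SE 0.12, adjusted p = 0.0112) with SA and at 0.008 (SE 0.12, adjusted p = 0.977) with sgALAS1. The difference between the arms passed neither for SPI1 (adjusted p = 0.245) nor for MYB (adjusted p = 0.22). IRF8 and EGR1, both factors of the monocyte lineage, rose with sgALAS1 by 0.80 (SE 0.16, adjusted p = 0.000659) and 1.03 (SE 0.18, adjusted p = 0.000202), and their differences between the arms passed at 1.22 (SE 0.23, adjusted p = 0.00225) and 1.25 (SE 0.25, adjusted p = 0.00601). EGR1 averaged 38.2 ± 5.57 CPM in sgALAS1 and 18.7 ± 1.8 CPM in sgSCR libraries, beside 38.9 ± 0.49 CPM in SA and 45.3 ± 12.1 CPM in vehicle libraries (SD, n = 3 each). It was lower in sgSCR than in vehicle at -1.27 (SE 0.18, adjusted p = 0.000108). Of 10 tested of 12 genes of myeloid progenitors, mostly of their granules, 0 rose by edgeR or DESeq2 in either arm (2 with SA and 0 with sgALAS1 at an unadjusted p under 0.05), 4 fell with SA and 3 with sgALAS1, among them the protease gene PRTN3 at -0.63 (SE 0.14, adjusted p = 0.00378) and -1.14 (SE 0.14, adjusted p = 9.99e-07). These falls are 40% and 30% of those tested, beside 6.24% and 6.85% of all tested identifiers.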

How the data were processed

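Gene expression was measured by QuantSeq 3′ sequencing in 12 libraries of OCI-AML3. Per the submitters' processing notes, reads were handled with bcl2fastq 2.17.1.14, cutadapt 1.14, HISAT2 2.0.4 and featureCounts of Subread 2.0.0 on hg19; edgeR 3.34.0 and limma 3.48.3 are also listed. No source used here gives the annotation release, the strand setting or the handling of multi-mapped reads. Raw read counts per Ensembl identifier and library were deposited by the authors, and library names tied columns to groups.

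Counts were analysed in R 4.3.3 with edgeR 4.0.16. The filter filterByExpr kept 13832 of 57905 identifiers, and all 12 libraries were fitted together with TMM normalisation and the two-sided quasi-likelihood F-test. Benjamini-Hochberg adjustment ran across every tested identifier (threshold 0.05), and the SE is the size of the log2 fold change divided by the square root of F. SA was compared with vehicle, sgALAS1 with sgSCR, each effect with the other, and sgSCR with vehicle. Alternatives were RLE factors, DESeq2 1.42.0, 2 other filters, fits of 6 libraries, other library sizes, a replicate block and leaving out each library. The fit was tested on simulated counts with known changes of several sizes, up and down, in genes drawn at random from all levels. It recovered 115 of 194 changed genes (59.3%) for SA, with 4 false calls. For sgALAS1 it recovered 107 of 195 (54.9%), with 9 false calls. These shares pool sizes and levels and are not the chance of recovering a given gene. A gene that did not pass may therefore still have changed. All 51 genes are named or counted, the genes of 4 further lists are named where they passed, up to 4 per list and comparison, and a named gene is also given where it did not pass. Neighbour pairs and counts at an unadjusted p were added after the data were seen. Some genes of the further lists are counted but not reported here by name. The members and lists were chosen with earlier results of these data known. Names and chromosomes came from a current gene table and GENCODE 29, and promoters from RefSeq on GRCh38.p14. A planned motif search in proteins was not made, as no protein table was used here.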

Additional observations from a re-analysis of the deposited data

Results flagged for a closer look

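The effects of the 2 arms differed past the test for 3 genes, and each difference is the sgALAS1 effect minus the SA effect on the log2 scale. LILRB4 had a difference of 0.78 (adjusted p = 0.044), from -0.02 with sgALAS1 and -0.80 with SA. CCR1 had 0.77 (adjusted p = 0.0429), from 0.35 with sgALAS1 and -0.41 with SA, neither of which passed alone. VIM had 0.70 (adjusted p = 0.0174), from 0.46 with sgALAS1 and -0.24 with SA. Each of the 3 calls depended on single libraries. Without sgSCR replicate 1, all 3 were lost, at adjusted p = 0.152 for LILRB4, 0.185 for CCR1 and 0.0957 for VIM. For CCR1 and VIM sgSCR was also lower than vehicle, at -0.56 and -0.52, and for LILRB4 it was at -0.39 without passing (adjusted p = 0.194).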

How the results depend on the processing

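Of the genes called by edgeR, 15 of 18 rises and 4 of 5 falls with SA, and 16 of 19 rises and 3 of 3 falls with sgALAS1, held under every alternative that gave a value. The filter of 1 CPM in 6 libraries, which kept 14043 identifiers, gave no value for THBS1, FCN1 and CD9. The fit of the 6 sgALAS1 and sgSCR libraries alone gave none for THBS1. Counts called up and down without single libraries were 15 to 17 and 4 to 5 with SA, and 18 to 19 and 3 to 4 with sgALAS1. For the difference of the effects they were 0 to 4 and 0 to 1, with 1 lower under no filter, and for sgSCR against vehicle 0 and 5 to 8. Over all identifiers, the SA count of 1531 was 954 without SA replicate 3, 982 without SA replicate 1 and 955 without vehicle replicate 2. The difference count of 164 was 277 with no filter, 340 without vehicle replicate 1 and 109 without sgSCR replicate 1, and the control count of 198 was 104 without vehicle replicate 2 and 84 without sgSCR replicate 1.

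With the replicate block, 18 genes of the set were called up and 6 down with SA, 20 up and 3 down with sgALAS1, 3 up and 0 down for the difference and 0 up and 7 down for sgSCR against vehicle. The block added CCR1 with SA (adjusted p = 0.0422) and FCGR1A with sgALAS1 (adjusted p = 0.0339). Over all identifiers the block gave 1704 calls with SA, 1796 with sgALAS1, 227 for the difference and 266 for sgSCR against vehicle. Without it these were 1531, 1622, 164 and 198. Within the arms, libraries of 1 replicate number correlated at -0.142 to 0.166 in their deviations from group means, and other pairs at -0.308 to 0.226. These few correlations show no pairing by number and cannot exclude one.

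The sign turned only for effects that did not pass. LILRB1 with SA was at -0.0044 with no filter, and CCR2 with sgALAS1 at -0.004 with the block. Without single libraries, the SA effect ranged from -0.03 to 0.39 for FCGR1A, -0.05 to 0.12 for TLR4, -0.22 to 0.41 for CD86, -0.51 to 0.51 for LILRB1, -0.05 to 0.11 for SIRPA, -0.35 to 0.31 for MS4A6A and -0.03 to 0.33 for LGALS3. The sgALAS1 effect ranged from -4.5 to 0.29 for FCN1, -0.09 to 0.31 for TLR4, -0.17 to 0.44 for LILRB1, -0.09 to 0.12 for LILRB4, -0.26 to 0.30 for CCR2, -4.93 to 1.16 for FGL2, -0.14 to 0.13 for CD4 and -0.56 to 0.12 for LGALS3. The causes were not tested. Depth limits genes of few reads, such as FGL2, FCN1 and THBS1, whose fitted fold changes depend on single reads.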

Other observations

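Several of these genes are neighbours of another gene of the lists used here, in the gene order of GENCODE 29, and these pairs were picked after their values were seen. TYROBP and HCST lie tail to tail on chromosome 19 with no protein-coding gene between them, and both fell in both arms. CD300A and CD300C lie tail to tail on chromosome 17 with 1 protein-coding gene between them, and CD300A fell while CD300C rose. LST1 and AIF1 lie on the same strand of chromosome 6 with 1 protein-coding gene between them; with sgALAS1, LST1 fell by 0.60 and AIF1 rose by 0.55 on the log2 scale. CCR1 and CCR2 lie head to head on chromosome 3 and passed in neither arm. The gene CCR3 overlaps CCR1 on the opposite strand.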
